A study of Mus musculus with 48 samples.

Results

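The 10 genes Pou5f1, Nanog, Esrrb, Klf4, Klf2, Klf5, Tfcp2l1, Tbx3, Prdm14 and Sall4, which encode core transcription factors of the naive pluripotent state, were taken by name out of 21887 protein-coding genes of the mm10 annotation. Every peak whose interval lay within 50 kb of the annotated span of one of them was counted, in each of 22 peak lists. The cells were E14Tg2a mouse embryonic stem cells (strain 129/Ola) with an auxin degron on endogenous CTCF and a doxycycline-inducible Ctcf transgene carrying a FLAG tag. The transgene was H455R, R448Q, Q418R, R377H, R377C, K365T, S354F, R342C or R339Q, each a change of 1 residue in the DNA-binding domain, or it was wild type (WT), so that the WT cells are transgene-rescued degron cells and not unmodified ones. All groups were given 500 µM indole-3-acetic acid (IAA), the auxin that triggers loss of endogenous CTCF, and 1 µg/ml doxycycline for 2 days, except for 1 group of untreated WT cells. All cells grew in serum medium with leukemia inhibitory factor, CHIR99021 and PD0325901, additions that hold stem cells in the naive state. Binding was measured by ChIPmentation, a chromatin immunoprecipitation in which a transposase adds the sequencing adapters, with antibodies to FLAG (10 genotypes), to the cohesin subunit SMC3 (10 genotypes) and to CTCF (treated and untreated WT cells). Each list pools 2 replicates, so the spread between replicates could not be computed and no difference between genotypes was tested. How many clones stand behind a genotype is not given in the sources used here, and peak lists cannot show expression, so the pluripotent identity of the cells was not checked with marker genes.

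Pou5f1 (Oct4) and Nanog, with Sox2, form the centre of the network that keeps embryonic stem cells undifferentiated, and Esrrb, the Krüppel-like factors, Tfcp2l1, Tbx3, Prdm14 and Sall4 reinforce it downstream of the LIF, Wnt and FGF/ERK signals that the medium sets. CTCF is a zinc-finger protein that halts loop-extruding cohesin at its sites, so that peaks of both proteins mark loop anchors and the borders of the neighbourhoods in which enhancers reach these genes. Cohesin is also found at active enhancers and promoters that carry no CTCF, where it is loaded or paused.

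The lists differ in length, and the counts near the 10 genes carry that difference. FLAG lists held between 3855 (H455R) and 30462 peaks (R377C), against 15392 in WT. SMC3 lists held between 42030 (Q418R) and 153647 peaks (R448Q), against 71962 in WT. With the CTCF antibody there were 116973 peaks in treated and 175815 in untreated WT cells. Library tags inside the peak names of the SMC3 lists are b1 for R342C, K365T, R377H, R448Q, H455R and WT, b2 for R339Q, b3 for Q418R, and b1 with b2 for S354F and R377C. What the tags stand for is not given in the sources used here, and genotype and tag cannot be told apart for R339Q and Q418R. The value of a peak is a score from the authors' peak caller and is used only within its own list, as a percentile where 100 is the strongest. A mutant's FLAG percentile at a WT FLAG peak is that of its strongest peak in the site made by merging overlapping FLAG peaks of all genotypes. Since list lengths differ, percentiles set side by side give the place of a site within each list and show no change in strength between genotypes. Intervals in parentheses are 95% Wilson intervals, which cover counting error over peaks only.

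FLAG peaks were rare at promoters of the genes, as they were over all annotated promoters. Windows from 250 bases before to 50 after an annotated start (RefSeq, GRCm38.p6, the assembly of mm10) were available for 6 of the 10 genes, in 9 windows. Klf5, Tbx3, Prdm14 and Sall4 had none in the table. The 2 Nanog windows overlap each other, so counts over the 9 windows are not counts of separate promoters. A Q418R FLAG peak overlapped 1 of the 9 windows, that of Tfcp2l1, and no other genotype's FLAG list, WT included, overlapped any. Over all 32851 windows of the table, 5.01% held a Q418R FLAG peak and 2.23% a WT one. The other mutants lay between 0.731% (H455R) and 4.02% (R339Q). A CTCF antibody peak overlapped 2 of the 9 windows in treated cells and 3 in untreated cells, against 14.7% and 20.9% of all windows. Start sites of the genes without a window could not be examined in this way. Among the 9 windows, the 3 that carried a FLAG or CTCF antibody peak are printed here. All lie on the plus strand, and capitals mark matches, on either strand, to AGGNGGC, the core letters of the CTCF motif. The first, Tfcp2l1 at chr1:118627695-118627994, held peaks of Q418R FLAG and of the CTCF antibody in treated and untreated cells. The second, Pou5f1 at chr17:35505782-35506081, held a CTCF antibody peak in untreated cells alone. The third, a further Pou5f1 start at chr17:35508557-35508856, held one in both.
Tfcp2l1: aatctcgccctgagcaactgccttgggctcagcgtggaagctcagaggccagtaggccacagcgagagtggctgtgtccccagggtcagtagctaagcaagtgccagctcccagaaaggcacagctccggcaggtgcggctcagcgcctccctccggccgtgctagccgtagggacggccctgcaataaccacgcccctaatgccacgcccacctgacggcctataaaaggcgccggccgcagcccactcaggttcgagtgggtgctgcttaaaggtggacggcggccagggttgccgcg
Pou5f1, first start: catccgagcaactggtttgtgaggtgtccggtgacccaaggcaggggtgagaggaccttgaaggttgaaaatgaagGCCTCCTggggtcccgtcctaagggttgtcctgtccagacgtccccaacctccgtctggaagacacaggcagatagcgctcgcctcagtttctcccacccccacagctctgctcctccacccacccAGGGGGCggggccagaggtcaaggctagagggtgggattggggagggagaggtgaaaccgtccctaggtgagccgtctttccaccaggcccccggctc
Pou5f1, second start: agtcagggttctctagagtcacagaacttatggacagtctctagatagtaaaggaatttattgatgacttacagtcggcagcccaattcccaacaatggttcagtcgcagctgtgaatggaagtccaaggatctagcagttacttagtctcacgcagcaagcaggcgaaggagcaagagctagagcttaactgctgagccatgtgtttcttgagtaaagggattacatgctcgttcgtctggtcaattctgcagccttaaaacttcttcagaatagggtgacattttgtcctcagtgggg
The Tfcp2l1 window and the second Pou5f1 window held no match, and the first Pou5f1 window held 1 on each strand. Of the 9 windows 7 held a match, and 9643 of all 32851 windows did (29.4%); a match describes the letters and is no evidence of binding. SMC3 peaks overlapped 6 of the 9 windows in R339Q, 6 in R342C, 5 in S354F, 7 in K365T, 6 in R377C, 6 in R377H, 1 in Q418R, 7 in R448Q, 6 in H455R and 3 in WT. Among all windows of the table the share was 12.6% in R339Q, 25% in R342C, 14.5% in S354F, 20.3% in K365T, 18.9% in R377C, 27.3% in R377H, 4.33% in Q418R, 38.3% in R448Q, 20.7% in H455R and 15% in WT, so that Q418R had the lowest share there too. At the Tfcp2l1 window, every mutant but Q418R had an SMC3 peak, at percentiles between 9.16 (R339Q) and 91.6 (R448Q), whereas Q418R, the 1 genotype with FLAG there, and WT had none. At the first Pou5f1 window, 7 mutants had one, between the 27.3 percentile in R342C and the 95.2 percentile in R448Q, and S354F, Q418R and WT had none. The 2 Nanog windows carried SMC3 in 8 mutants, all but Q418R, and in WT (percentile 65.5), with the same value in both windows for each genotype. The Klf2 window carried SMC3 in all 9 mutants and in WT (percentile 70.6), with no FLAG or CTCF antibody peak.

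FLAG peaks were found near every one of the genes in only 1 genotype, Q418R, and near 6 of the 10 in WT. Within 50 kb of the genes there were 38 FLAG peaks in R339Q, 21 in R342C, 39 in S354F, 15 in K365T, 41 in R377C, 23 in R377H, 50 in Q418R, 21 in R448Q, 3 in H455R and 20 in WT. The genes with at least 1 FLAG peak numbered 8 in R339Q, 7 in R342C, 8 in S354F, 6 in K365T, 8 in R377C, 6 in R377H, 10 in Q418R, 8 in R448Q, 3 in H455R and 6 in WT. Among all protein-coding genes the share with a peak at this distance was 63.1% in R339Q, 62.7% in R342C, 73.9% in S354F, 57.6% in K365T, 74.2% in R377C, 61.2% in R377H, 76.2% in Q418R, 64.7% in R448Q, 20.1% in H455R and 63.3% in WT. The WT count of 6 of 10 is thus near that of genes in general. The 4 genes without WT FLAG in this window were Klf2, Klf5, Tfcp2l1 and Prdm14. Within 100 kb all but Klf5 had a WT FLAG peak, the nearest being 57.8 kb from Klf2, 60.9 kb from Prdm14 and 74.4 kb from Tfcp2l1, against 156 kb from Klf5. The 6 with it were Pou5f1 (4 peaks), Nanog (4), Esrrb (4), Tbx3 (5), Klf4 (2) and Sall4 (1). SMC3 in WT cells and the CTCF antibody in treated and untreated cells had peaks near all 10 genes, as they did near 80.2%, 88.6% and 90.1% of protein-coding genes.

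**Figure D1:**
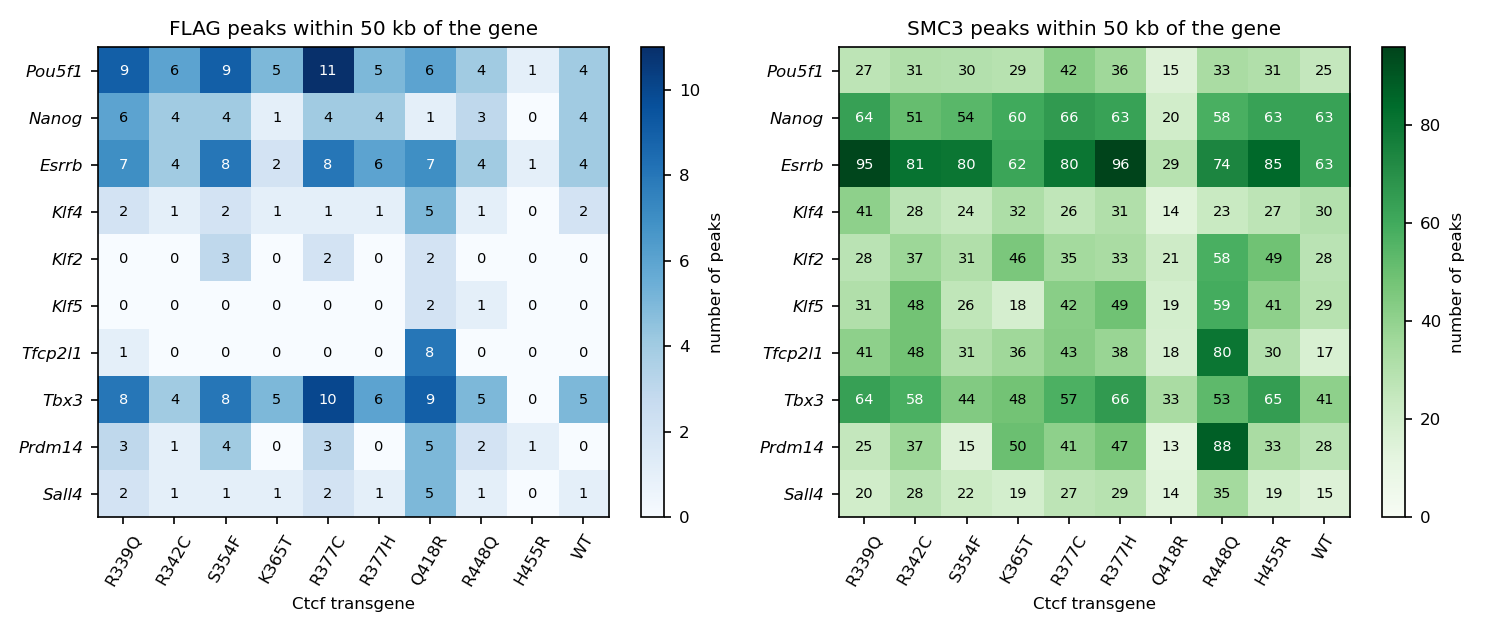
Number of FLAG peaks (left) and SMC3 peaks (right) within 50 kb of each gene (vertical axis) in cells with each Ctcf transgene (horizontal axis, 9 mutants and then WT); colour and numeral give the count in 1 pooled list. The Q418R column is the only FLAG column with no 0, and H455R has 3 FLAG peaks in all; in the SMC3 panel Q418R has the lowest count of the 9 mutants at 9 of the 10 genes.

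The 20 WT FLAG peaks near the genes were mostly kept, a peak being kept in a mutant where a FLAG peak of that mutant overlapped it by at least 1 bp. Of the 20, H455R kept 1, R339Q 17, R342C 17, S354F 20, K365T 13, R377C 19, R377H 18, Q418R 14 and R448Q 17. The shares of the whole WT list kept were 53.1% in R339Q, 72.2% in R342C, 86.2% in S354F, 52.1% in K365T, 89.6% in R377C, 71.8% in R377H, 59.2% in Q418R, 75.2% in R448Q and 10.5% in H455R. The share near the genes was therefore above the whole list in 8 mutants and below it in H455R. With 20 peaks the intervals are wide: R339Q kept 85% (64 to 94.8), K365T 65% (43.3 to 81.9) and H455R 5% (0.888 to 23.6), and of the 9 only that of R339Q lay wholly above its whole-list share. The mean over the mutants was 75.6% near the genes and 63.3% over the list. This order did not hold among the 3855 strongest peaks of each list (48.1% against 50%), which left 3 WT peaks near the genes. With the upper 50% of each list the means held this order (69.4% against 63.8%), as did 7 of the 9 mutants. When overlaps had to cover 50% of both peaks the means held it (43.9% against 41.1%), but only 5 of the 9 mutants did. For R339Q it was reversed in the upper 50% (4 of 8, against 54.8%) and among the 3855 strongest (1 of 3, against 42.4%). With the stricter overlap R339Q kept 30%, against 22.9%. All 8 mutants other than H455R kept 12 of the 20 peaks, against 29.9% of the list, and all 9 kept 1, against 5.04%. Each of the 20 overlapped a WT SMC3 peak and a CTCF antibody peak of treated cells, as did 81.2% and 91.1% of the WT FLAG list.

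**Figure D2:**
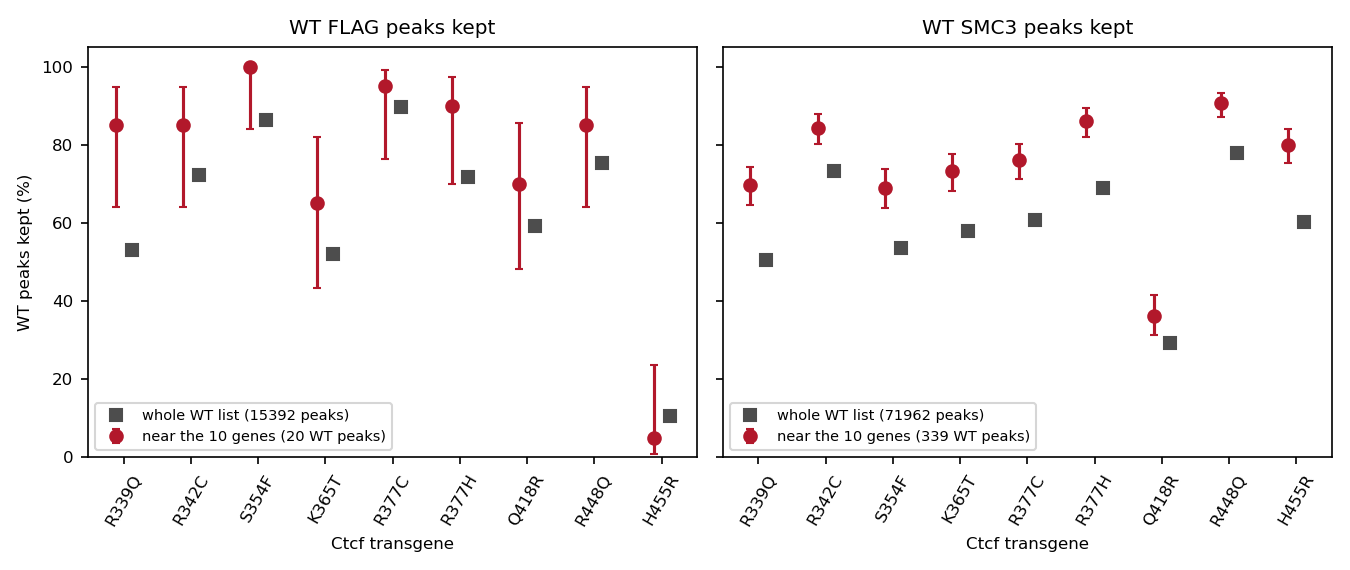
Percentage of WT FLAG peaks (left) and of WT SMC3 peaks (right) that overlapped a peak of the same antibody in each mutant (horizontal axis). Circles are the peaks within 50 kb of the 10 genes with 95% Wilson intervals over peaks, squares the whole WT list; circles lie above squares in 8 of 9 mutants for FLAG and in 9 of 9 for SMC3.

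Pou5f1 encodes the POU factor Oct4, and its WT FLAG peaks were kept alike in 8 mutants. Its other FLAG sites varied: of 13 sites in all, 9 held only mutant peaks, and 5 were found in 1 genotype only. A K365T peak found in no other genotype lay inside the gene (percentile 54). The WT FLAG peaks of Pou5f1 lay 21.8 kb upstream of the start and 8.05, 28.6 and 38.9 kb downstream. All 4 were kept in all 8 mutants other than H455R. The one at 28.6 kb, chr17:35534430-35534774 inside Psors1c2, was the strongest WT FLAG peak near any of the 10 genes and the 1 of the 20 that every mutant kept. There the FLAG percentile was 23.9 in R339Q, 72.5 in R342C, 90.9 in S354F, 4.21 in K365T, 91.7 in R377C, 68.7 in R377H, 50.8 in Q418R, 95.8 in R448Q and 99.1 in H455R, against 91 in WT. It was thus near the top of the H455R list, which is the shortest, and near the bottom of the K365T list. The peak nearest the gene, chr17:35514005-35514156 in Tcf19, had a FLAG percentile between 0.897 in K365T and 77.9 in R339Q, against 1.79 in WT, while the SMC3 peak there stood between percentiles 97.8 and 99.9 in the mutants, against 98.3 in WT. The upstream peak, chr17:35484051-35484452, stood between percentiles 27.9 in R339Q and 92.2 in S354F among the mutants that kept it, against 66.2 in WT, and overlapped the strongest treated CTCF antibody peak of the window (percentile 99.4).

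Nanog encodes the homeodomain factor that stabilises the naive state, and its 4 WT FLAG peaks divided the mutants. R339Q, R342C, S354F, R377C and R377H kept all 4, R448Q kept 3, K365T and Q418R kept 1 and H455R kept none. The 1 that K365T and Q418R kept was the strongest in WT, chr6:122669346-122669786, 37.9 kb upstream. Its FLAG percentile was 0.101 in R339Q, 42.7 in R342C, 88.5 in S354F, 3.67 in K365T, 75.8 in R377C, 50.5 in R377H, 0.435 in Q418R and 61.1 in R448Q, against 67.4 in WT, so that in R339Q, K365T and Q418R the site was kept only as one of the weakest peaks of the list. SMC3 was present there in all 9 mutants, at percentile 94.6 in Q418R and at 99 or above in the other 8, H455R (99.8) included. The WT SMC3 peak over it ranked 32 of 71962 and the treated CTCF antibody peak ranked 106 of 116973. Downstream, chr6:122720001-122720324 (12.7 kb from the start, WT percentile 49.2) and chr6:122740043-122740202 in Slc2a3, a glucose transporter gene (32.6 kb, WT percentile 1.25), were kept in the same 6 mutants. In these 6 the percentile ran from 0.316 (R339Q) to 77.5 (R377C) at 12.7 kb. At 32.6 kb it ran from 0.303 (R339Q) to 61.8 (R377C). At the remaining WT peak, 46.8 kb upstream (WT percentile 28.9), it ran from 0.558 (R377H) to 66.4 (R339Q) in the mutants that kept it. The gene itself held no FLAG peak in any genotype.

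Esrrb encodes an orphan nuclear receptor of the naive network. Its strongest WT FLAG peak, chr12:86402847-86403091 inside the gene 41.9 kb from the start, had a FLAG peak in only 2 mutants, S354F (percentile 89) and R377C (78.4), against 77.9 in WT. SMC3 was nevertheless present at this position in all 9 mutants, between percentile 90.6 in Q418R and 99.4 in S354F, with 97.5 in WT. The remaining intragenic peaks, chr12:86433352-86433537 and chr12:86508791-86508937, were kept in 6 mutants and in all but H455R. At the first the percentile was 95.5 in R339Q, against 4.66 in WT, and at the second 74.5 in R377C, against 4.11 in WT. The upstream peak at 16.8 kb was kept in the same 8 mutants.

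Klf4, a Krüppel-like factor and reprogramming factor, had 2 WT FLAG peaks, both downstream. The farther one, chr4:55480547-55480749, was kept in all but H455R, at percentiles from 14.6 in K365T to 92.4 in R377C, against 31.3 in WT. The nearer one, chr4:55514776-55515035, 12.1 kb from the span, was kept in S354F (percentile 70.1) and Q418R and in no other mutant. In Q418R its value was 24.8 at percentile 99, against percentile 29.2 in WT, and this was the highest FLAG percentile that Q418R reached near the 10 genes. SMC3 was present here in all 9 mutants, between percentile 66.7 in R339Q and 95.3 in R377H, with 86.9 in WT. Q418R had a further FLAG peak alone at 0.232 kb from the span (percentile 72.9), at which all 9 mutants had SMC3.

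Klf2 and Klf5, Krüppel-like factors that overlap with Klf4 in function, had no WT FLAG peak. Near Klf2, S354F had 3 FLAG peaks, R377C 2 and Q418R 2, and the other genotypes had none. The S354F and R377C peaks, 46.6 and 45.8 kb upstream, lay at the strongest treated CTCF antibody peak of the window (percentile 88.1), with the third S354F peak 46.9 kb downstream in Eps15l1. The 2 Q418R peaks were elsewhere, 4.12 and 39.6 kb downstream of the start, and neither met a treated CTCF antibody peak. Near Klf5, Q418R had 2 peaks and R448Q 1, the R448Q peak (percentile 6.98) at a site inside the gene that it shared with Q418R (11.3). The strongest treated CTCF antibody peak near Klf5 stood at percentile 72.1, the lowest of the 10 genes.

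Tfcp2l1, a Grainyhead-family factor that acts downstream of LIF, was the gene with the most FLAG sites held by Q418R alone. Q418R had 8 FLAG peaks near it and R339Q 1, and the other 7 mutants and WT had none. All 8 Q418R sites held no other genotype's FLAG, and 54.6% of the whole Q418R list overlapped no other FLAG list. The strongest, 46.1 kb downstream (value 8.34, percentile 85.9), and the one over the start site (value 6.27, percentile 78.5) overlapped a treated CTCF antibody peak, at percentiles 69.9 and 69.6 of that list. Of the 8, 4 overlapped no CTCF antibody peak of treated or untreated cells. All 8 lay outside the WT FLAG list, and of the Q418R peaks outside it genome-wide 54.5% lay at a CTCF antibody peak. Among all Q418R peaks, those shared with WT included, that share was 66.8%. WT SMC3 overlapped none of the 8. The share over the whole Q418R list was not computed, so this count cannot be read as a trait of the sites near Tfcp2l1. The strongest of the 8 had no SMC3 peak in any genotype.

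**Figure D3:**
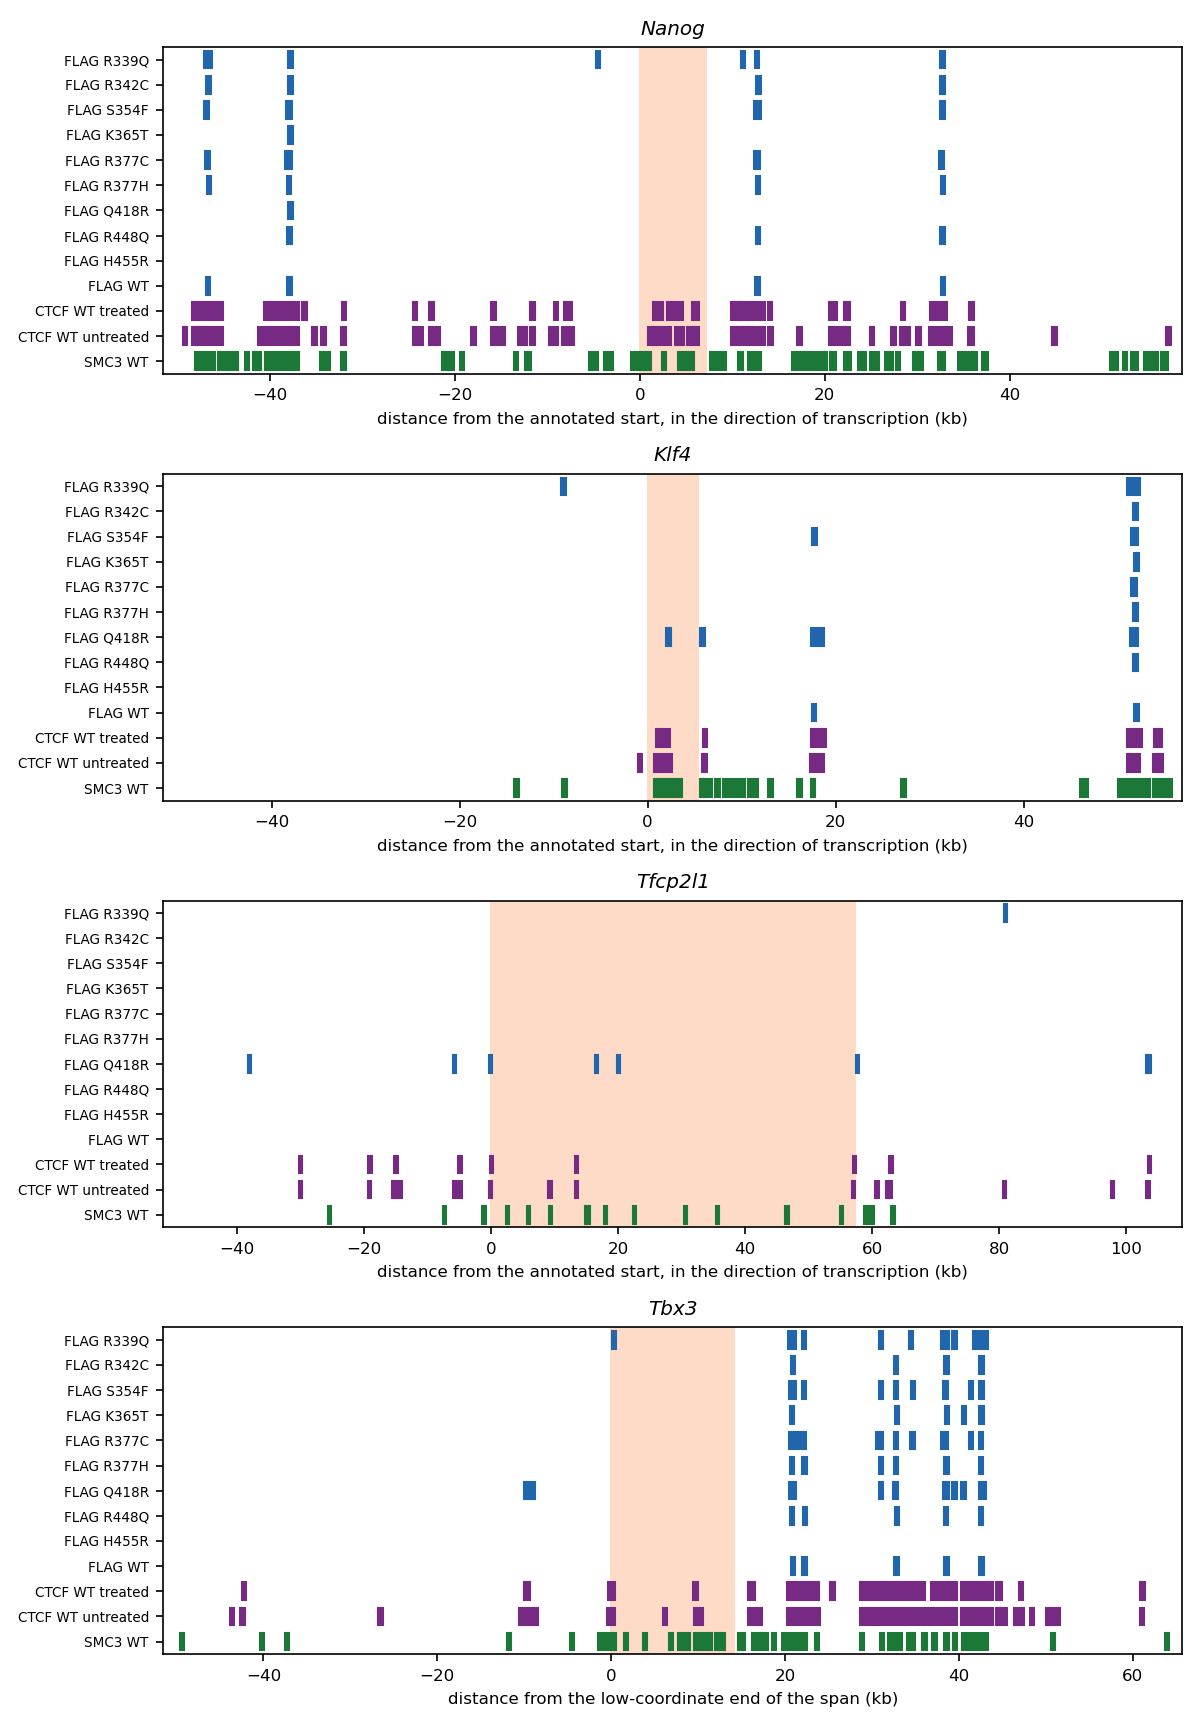
Positions of FLAG peaks in each genotype, of CTCF antibody peaks in treated and untreated WT cells and of WT SMC3 peaks around Nanog, Klf4, Tfcp2l1 and Tbx3; the horizontal axis is the distance in kb from the annotated start (for Tbx3, from the low-coordinate end of the span), shading is the gene and narrow peaks are drawn 0.5 kb wide. The K365T and Q418R rows at Nanog hold 1 FLAG peak each, and near Tfcp2l1 the Q418R row holds 8, the farthest downstream pair drawn as 1 block, and the WT row none.

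Tbx3 encodes a T-box repressor that sustains self-renewal. It had 5 WT FLAG peaks, all on the high-coordinate side of its span within 28.2 kb, and RefSeq strand was not at hand for it. The strongest, chr5:119712891-119713227, was kept in all mutants but H455R, at percentiles between 84 in K365T and 97.8 in S354F, against 76.4 in WT. The peak at chr5:119691222-119691416 (WT percentile 73.5) was also kept in those 8, whereas chr5:119692553-119692649 (WT percentile 14.6) was kept in 5. H455R had no FLAG peak near Tbx3, yet its SMC3 peaks lay at 4 of the 5 positions, at percentiles 99.3 and 99.4 at the 2 strongest. Q418R alone had a FLAG peak at percentile 94.3 (value 13.7) 9.37 kb from the other end, inside the antisense gene Tbx3os1.

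Prdm14, a PR-domain factor that restrains FGF signalling and is needed in germ cells, had no WT FLAG peak but 11 FLAG sites in mutants. The counts were 3 in R339Q, 1 in R342C, 4 in S354F, 3 in R377C, 5 in Q418R, 2 in R448Q and 1 in H455R, with 0 in K365T, R377H and WT. The site shared by most mutants lay inside the gene and was found in R339Q, R342C, S354F and R377C, between percentiles 24.3 and 66.4. The strongest was a Q418R peak 7.07 kb from the span (percentile 88.7). Sall4, a zinc-finger factor that partners Oct4, had 1 WT FLAG peak, chr2:168742723-168742939, which lies 0.353 kb from Atp9a. It was kept in all mutants but H455R, where SMC3 alone was present (percentile 98.2), and the FLAG percentile of the other 8 ran from 72.1 in K365T to 92.7 in R339Q, against 69.8 in WT.

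**Figure D4:**
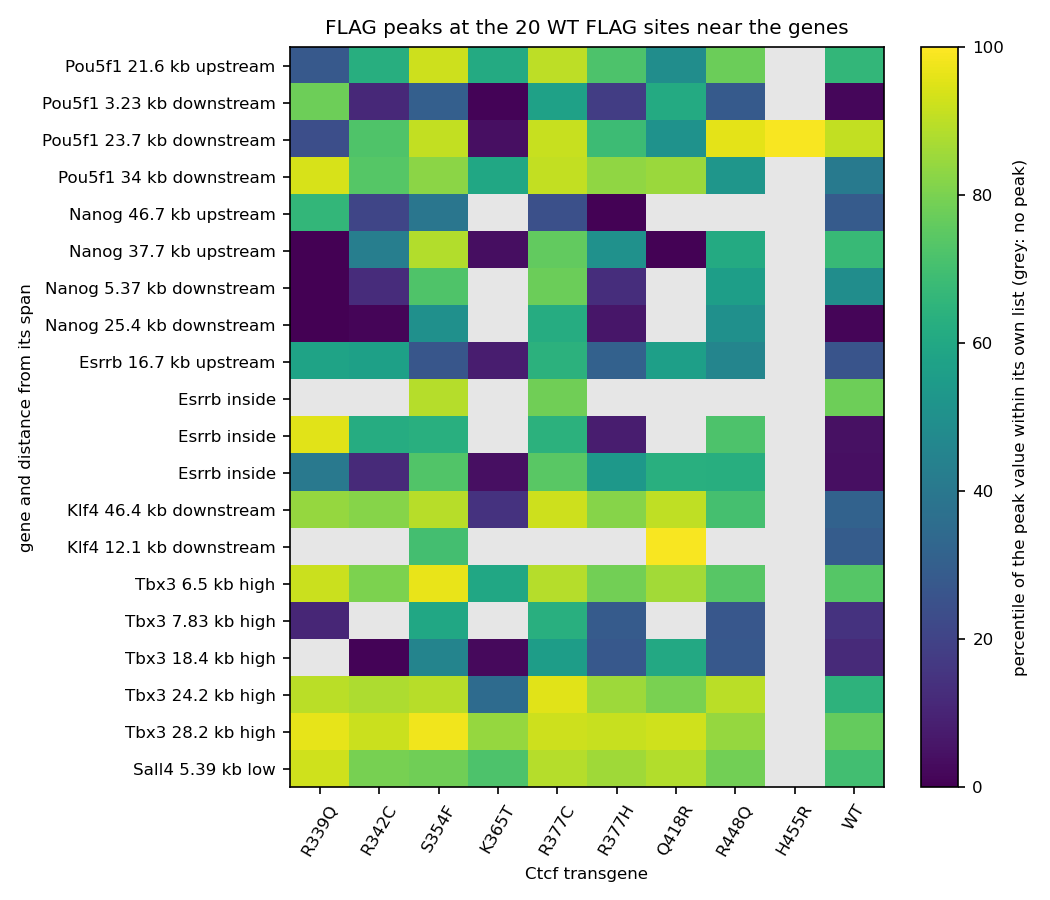
FLAG peaks at the 20 WT FLAG positions (vertical axis, with gene and distance from its span; high and low mean the side of higher or lower coordinates) in each genotype (horizontal axis, 9 mutants and then WT). Colour is the percentile, within its own list, of the genotype's strongest FLAG peak in the merged site that holds the WT peak. Grey marks no FLAG peak overlapping the WT peak. H455R is grey in 19 of 20 positions and S354F in none.

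Merging FLAG peaks of all genotypes gave 88 sites near the genes, of which 68 held only mutant peaks and 20 a WT peak. Sites were merged only near the genes, so counts of merged sites have no genome-wide share beside them and cannot be called particular to these genes. Of the 68, 47 belonged to a single mutant, 28 of them to Q418R and 9 to R339Q. The 28 made up 56% of the 50 Q418R peaks near the genes, against 54.6% of the whole Q418R list, and the 9 were 23.7% of the R339Q peaks, against 29.5% of its list. The peaks of each mutant outside the WT FLAG list numbered 21 of 38 in R339Q (57.4% of its whole list), 4 of 21 in R342C (33%), 19 of 39 in S354F (45.8%), 2 of 15 in K365T (39%), 22 of 41 in R377C (55.9%), 5 of 23 in R377H (33.6%), 36 of 50 in Q418R (70.2%), 4 of 21 in R448Q (40.6%) and 2 of 3 in H455R (58.1%). For Q418R the share outside the WT list was 72% (58.3 to 82.5) near the genes. No CTCF antibody peak lay at 13 of the 88 sites, and 8 of those 13 were Q418R alone. Of the 50 Q418R peaks near the genes 42 lay at a CTCF antibody peak (84%, 71.5 to 91.7), against 66.8% of its list. The sites held by 5 mutants without WT were chr12:86558905-86559301, 37.3 kb downstream of Esrrb in S354F, R377C, R377H, Q418R and R448Q, and chr5:119701326-119701832, 16.6 kb from Tbx3 in R339Q, S354F, R377C, R377H and Q418R. Both overlapped a treated CTCF antibody peak, at percentiles 91.1 and 95.7. The mutant-only sites named in the paragraphs on single genes were picked after their values were seen.

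Cohesin was mostly present where a mutant had no FLAG peak. The 9 mutants and 20 WT FLAG peaks make 180 combinations, FLAG was missing in 44 of them, and SMC3 of that mutant was present in 40 of the 44. H455R accounts for 19 of the 44, with SMC3 at 18, and over the whole list 63.5% of the WT FLAG peaks that H455R lacked had H455R SMC3. K365T had SMC3 at 7 of 7 missing peaks (58.4% over the list), R339Q at 3 of 3 (40.2%), R342C at 3 of 3 (54.3%), R448Q at 3 of 3 (60.7%), R377H at 2 of 2 (47.7%) and R377C at 1 of 1 (15.6%). Q418R had SMC3 at 3 of 6 (33.6%), and S354F, which missed none of the 20, had 10.2% over its list. The reverse also occurred, with FLAG kept and SMC3 missing. S354F had SMC3 at 18 of the 20 peaks it kept, and R377C had none at the upstream Esrrb peak, which it kept. The Q418R SMC3 list is the shortest and carries a tag of its own, and the part of either in these counts was not tested.

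WT SMC3 peaks were dense around the genes, where 0.471% of the 71962 peaks of the list lay, against 0.13% of the WT FLAG list. Nanog had 58.8 WT SMC3 peaks per 100 kb of its window, against a median of 3.53 over protein-coding genes, and the value of Tbx3 (35.9) lay at the 99.5 percentile of those genes. The lowest places were held by Tfcp2l1 (10.8, percentile 82.4) and Sall4 (12.6, percentile 86.2), and the other 6 genes lay between percentiles 97.3 and 98.6. WT FLAG density was less extreme, highest at Tbx3 with 4.38 peaks per 100 kb (percentile 97.2). Nanog had 3.73 and Pou5f1 3.82 (percentiles 95.1 and 95.7), and 4 genes had 0. Of these SMC3 peaks 209 (61.7%, 56.4 to 66.7) overlapped neither WT FLAG nor a CTCF antibody peak, against 51.9% of the list. This share was 88.2% at Tfcp2l1, 82.8% at Klf5, 78.6% at Prdm14 and 75% at Klf2, the 4 genes without WT FLAG, a lack that itself enters the definition. At the other genes it was 70% at Klf4, 61.9% at Nanog, 54% at Esrrb, 48.8% at Tbx3, 40% at Sall4 and 28% at Pou5f1.

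**Figure D5:**
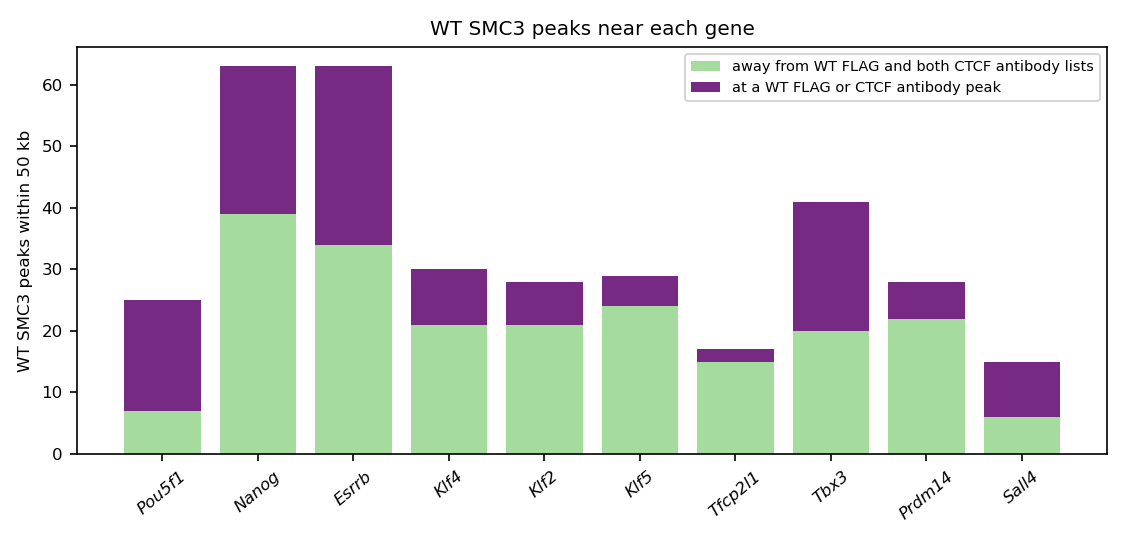
Number of WT SMC3 peaks within 50 kb of each gene (vertical axis, stacked bars), split into those at a WT FLAG or CTCF antibody peak and those away from all of these. Nanog and Esrrb have 63 each; 15 of the 17 at Tfcp2l1 and 7 of the 25 at Pou5f1 lie away from CTCF peaks.

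The share of WT SMC3 peaks kept was higher near the genes than over the whole list in all 9 mutants, an order that depended on the overlap asked for. H455R kept 271 of the peaks near the genes and lacked 68, R339Q kept 236, R342C 286, S354F 234, K365T 248, R377C 258, R377H 292, Q418R 123 and R448Q 307. The whole-list shares were 50.5% in R339Q, 73.3% in R342C, 53.7% in S354F, 57.8% in K365T, 60.7% in R377C, 69% in R377H, 29.3% in Q418R, 77.8% in R448Q and 60.2% in H455R. The shares near the genes were, for example, 69.6% (64.5 to 74.3) in R339Q and 36.3% (31.3 to 41.5) in Q418R, and the mean was 73.9%, against 59.1% over the list. The same order held when each list was reduced to its 42030 strongest peaks (68.6% against 55.2%). With the upper 50% of each list by value it held in 8 of 9 mutants, Q418R being at 29% near the genes and 34.8% over the list. When each overlap had to cover 50% of both peaks it held in 4 of 9, and the means were 31.6% near the genes and 33% over the list. All 9 mutants kept 85 of them (25.1%), against 17.1% of the list, and 7 were kept in no mutant, against 7.59%. The 12 that belonged to the strongest decile of the WT list, at Pou5f1, Nanog, Esrrb, Tbx3 and Sall4, were all kept in all 9, against 83.3% of that decile.

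The share of WT SMC3 peaks that Q418R kept was lowest at Nanog and highest at Sall4. At Nanog, Q418R kept 14 of 63 WT SMC3 peaks (22.2%), whereas the other 8 mutants kept between 50 (K365T) and 61 (R448Q). The SMC3 count near Nanog was 20 in Q418R, between 51 and 66 in the other mutants, and 63 in WT. At Klf5, Q418R kept 7 of 29 and K365T 10 of 29. At Prdm14 the lowest count kept was 6 of 28 in S354F, with 11 in Q418R and all 28 in R448Q. Q418R kept 8 of 15 at Sall4 and 21 of 41 at Tbx3. R448Q, whose SMC3 list is the longest, had 88 SMC3 peaks near Prdm14, against 28 in WT, and 80 near Tfcp2l1, against 17 in WT.

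The CTCF antibody does not separate endogenous from transgene CTCF, and it compares WT cells after IAA and doxycycline with untreated ones. Near the genes there were 178 peaks in treated and 289 in untreated WT cells. Of the untreated peaks 150 had a treated peak (51.9%, 46.2 to 57.6), against 56.9% of the list. The counts were 30 in treated and 53 in untreated cells at Nanog, 31 and 56 at Esrrb, 28 and 34 at Pou5f1, 7 and 6 at Klf4, 20 and 33 at Tbx3, and 19 and 34 at Sall4. They were 10 and 21 at Klf2, 11 and 18 at Klf5, 9 and 16 at Tfcp2l1, and 13 and 18 at Prdm14. At Klf4 the higher count in treated cells came from untreated peaks that 2 treated peaks each overlapped, and 1 untreated peak there had no treated peak. All 70 untreated peaks of the strongest quartile near the genes had a treated peak, as did 44017 of 44028 in the whole list (100% when rounded). Of the 178 treated peaks 19 overlapped a WT FLAG peak, against 11% of the list. The strongest treated peak stood at percentile 97.4 or above at the 6 genes with WT FLAG, and at 72.1 (Klf5), 75.5 (Tfcp2l1), 84.4 (Prdm14) and 88.1 (Klf2) at the 4 without.

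Over the 10 genotypes, Nanog, Klf4, Tbx3 and Sall4 had the same pattern of FLAG presence, with a peak in every genotype but H455R, and Pou5f1 and Esrrb matched in all 10, with a peak in each. Klf5 and Tfcp2l1 matched in 8 of 10, and Pou5f1 matched Klf5 and Tfcp2l1 in 2 of 10. A further 21 pluripotency genes, among them Sox2, Zfp42, Stat3 and the Dppa genes, had WT FLAG at 14, with 41 WT FLAG peaks. Of the 41, H455R kept 5, R339Q 21, R342C 32, S354F 40, K365T 21, R377C 39, R377H 33, Q418R 23 and R448Q 27. R339Q kept 85% of the 20 near the 10 genes and 51.2% of these 41, the widest gap between these sets among the 9 mutants. With the upper 50% of each list R339Q kept 4 of 8 WT FLAG peaks near the 10 genes (50%). Of the 373 WT SMC3 peaks near the 21 genes Q418R kept 99 (26.5%), the fewest, and R448Q 318 (85.3%), the most, the same extremes as near the 10 genes. Dppa3 lies close enough to Nanog that their windows share peaks.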

How the data were processed

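ChIPmentation libraries of 48 samples in 24 groups of 2 replicates are given by the labels, and 22 groups with a pooled peak list were used; FLAG in untreated WT cells and IgG were not analysed here. The submitters' processing notes name Trim Galore, Bowtie2, MACS2, deepTools and the build mm10, with no version given in these sources. Each peak has a deposited score from the caller that the authors ran, compared only within a list. Repeated FLAG intervals, 1 per summit, were merged with the highest value. Between 1.3% and 5.26% of the running numbers in the peak names are absent from a list, so an absent peak can be one that was removed before deposit. The depth per library is unknown, and list length depends on it. Replicates may be cultures or technical repeats.

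Peaks within 50 kb of RefSeq gene spans (GRCm38.p6) were taken, and an overlap of at least 1 bp counted as shared. Python 3.11.15, numpy 2.4.6, pandas 2.3.3, scipy 1.17.1 and matplotlib 3.10.9 were used. Overlaps were tested on simulated data and checked with bedtools 2.31.1. FLAG peaks of the 10 lists were merged into sites where they overlapped. Members, lists and rules were chosen with earlier results of these data known, and nothing was tested. Coordinates are given for the strongest WT FLAG peak of a gene and the 2 nearest to it (all where a gene had 3 or fewer) and for sites in 5 or more mutants without WT. Alternatives were windows of 10 and 100 kb, the upper 50% of each list, equal numbers of top peaks, a reciprocal overlap of 50%, a match within 500 bp, mutants with the SMC3 tag of WT, and leaving out each gene or mutant.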

Additional observations from a re-analysis of the deposited data

How the results depend on the processing

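Near the 10 genes the WT FLAG list held 20 peaks at 6 genes, the mean share of WT peaks kept over the 9 mutants was 75.6% for FLAG and 73.9% for SMC3, 51.9% of untreated CTCF antibody peaks had a treated peak, and 100% of WT FLAG peaks had SMC3. A window of 10 kb gave 8 peaks and an SMC3 share of 80.2%, and one of 100 kb gave 37 peaks at 9 genes. The upper 50% of each list gave 8 peaks and a CTCF antibody share of 66%. Reducing lists to the length of the shortest (3855 for FLAG, 42030 for SMC3, 116973 for the CTCF antibody) gave 3 WT FLAG peaks at 3 genes and shares of 48.1% for FLAG, 68.6% for SMC3 and 69.5% for the CTCF antibody. A reciprocal overlap of 50% gave 43.9% for FLAG, 31.6% for SMC3, 37% for the CTCF antibody and 25% for WT FLAG peaks with SMC3, fewer by construction. A match within 500 bp gave 84.2% for SMC3 and 68.5% for the CTCF antibody, more by construction. The 5 mutants with the SMC3 tag of WT had a mean SMC3 share of 82.8%. Their whole-list shares ran from 57.8% in K365T to 77.8% in R448Q, and the whole-list mean over all 9 mutants was 59.1%. Leaving out 1 gene or mutant gave 71.5% to 84.4% for FLAG, 71.8% to 78.6% for SMC3, 50.8% to 53.7% for the CTCF antibody and 100% for WT FLAG peaks with SMC3; the highest FLAG value is without H455R and the highest SMC3 value without Q418R. Apart from the constructions named, the cause of a move was not tested.

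No paired analysis was possible because each list pools replicates 1 and 2. With 20 WT FLAG peaks the counting intervals of single shares are wide. Percentiles give a place within a list and no change in strength from WT, and sites below a list's threshold were not seen.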
